A study of Rattus norvegicus with 6 samples.

Results

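NF-kB is a family of transcription factors that drives inflammatory gene expression. The genes described here encode its subunits and proteins that inhibit or otherwise regulate it. The 10 genes were chosen by name as 5 subunits (Nfkb1, Nfkb2, Rela, Relb and Rel) and 5 inhibitors or regulators (Nfkbia, Nfkbie, Nfkbiz, Tnfaip3 and Bcl3), out of 31368 genes in the deposited table. The latter 5 are called inhibitors below for short, although Nfkbiz and Bcl3 encode regulators in the nucleus. Each symbol stood on 1 row of the table, and all 10 passed the filter on low counts that left 15371 genes to test. RNA was sequenced from kidneys of male Sprague-Dawley rats, an outbred strain, in which the disease model was set up at 8 weeks of age. The tested libraries were 3 of rats with chronic kidney disease (CKD) and the controls were 3 of sham rats (Sham), and both groups were of wild-type genotype. The sources used here do not give how the disease was brought about, how old the rats were when tissue was taken or whether a library held 1 animal or several. Each p-value therefore reflects only how far these libraries scatter, and that scatter may be technical.

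NF-kB acts as dimers of the 5 subunits. In resting cells IkB proteins hold the dimers in the cytoplasm. Signals from receptors such as those for TNF, interleukin-1 and bacterial products activate the IKK kinases, which mark IkB for destruction and free dimers that contain p65, the product of Rela. A second, slower branch processes the Nfkb2 product p100 to p52, which pairs with RelB. Several of the genes that NF-kB switches on encode its own subunits and inhibitors, so that the pathway feeds back on itself. In the diseased kidney the pathway is known from tubular cells and from infiltrating leukocytes.

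Total counts ran from 17240755 to 17503644 in CKD and from 15918035 to 17409090 in Sham, and the members drew between 88 and 2721 counts per library. Levels are given as CPM, the count relative to a library size scaled by TMM, which adjusts for library composition. Mitochondrial genes took 8.83% to 10.8% of counts in CKD, against 14.4%, 37.9% and 15.3% in Sham 1, 2 and 3. Kidney markers were abundant in both groups: the 5 proximal tubule markers, among them the endocytic receptors Lrp2 and Cubn, summed to 6393 to 9276 CPM in CKD and 4076 to 12730 CPM in Sham. The 5 markers of the distal nephron, Umod and Slc12a1 among them, summed to 1746 to 3362 CPM in CKD and 2898 to 7947 CPM in Sham. The 4 podocyte markers, such as the slit diaphragm gene Nphs1, summed to 261 to 504 CPM in CKD and 171 to 633 CPM in Sham. The 4 endothelial markers, such as Pecam1 and Kdr, summed to 195 to 280 CPM in CKD and 274 to 338 CPM in Sham. The 5 fibroblast and mural markers, such as the PDGF receptors Pdgfra and Pdgfrb, summed to 563 to 825 CPM in CKD and 96.0 to 348 CPM in Sham.

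The promoter windows of these genes, 250 bases before to 50 after the annotated start (RefSeq, build GRCr8), were searched on both strands for the 10-base kB consensus, the sequence that NF-kB dimers bind. Windows were held for 9 of the 10 members, all but Relb. A match stood in 8 of the 9 (88.9%), Rela being the one without, against 1400 of all 33469 windows (4.18%). Median GC content was 69.3% in the members' windows and 51.7% in all windows, and the part of base composition in the match count was not tested. The windows of the 5 members with an unadjusted p under 0.05 between CKD and Sham are shown, since the values below turn on these genes. Capitals mark the match, and each sequence runs 5′ to 3′ on the strand of its gene.
Nfkbia, chr6:78597023-78597322, minus strand: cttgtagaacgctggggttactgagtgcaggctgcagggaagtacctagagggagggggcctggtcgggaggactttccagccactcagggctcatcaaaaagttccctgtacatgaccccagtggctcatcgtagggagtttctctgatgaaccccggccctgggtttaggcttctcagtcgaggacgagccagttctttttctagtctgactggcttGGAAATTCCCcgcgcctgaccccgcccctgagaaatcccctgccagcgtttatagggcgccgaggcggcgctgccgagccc
Nfkbie, chr9:22947823-22948122, minus strand: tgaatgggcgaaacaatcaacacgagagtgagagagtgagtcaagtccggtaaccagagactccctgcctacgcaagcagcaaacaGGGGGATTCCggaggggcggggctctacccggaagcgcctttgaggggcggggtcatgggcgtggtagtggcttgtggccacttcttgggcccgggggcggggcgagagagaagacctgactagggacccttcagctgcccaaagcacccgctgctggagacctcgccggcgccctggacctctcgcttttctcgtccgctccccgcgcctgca
Bcl3, chr1:88613506-88613805, minus strand: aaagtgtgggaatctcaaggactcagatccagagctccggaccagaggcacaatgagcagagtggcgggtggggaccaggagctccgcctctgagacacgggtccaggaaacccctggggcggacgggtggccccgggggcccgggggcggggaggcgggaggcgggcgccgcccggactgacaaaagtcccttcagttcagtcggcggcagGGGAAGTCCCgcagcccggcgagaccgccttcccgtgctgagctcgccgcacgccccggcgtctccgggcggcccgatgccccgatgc
Rel, chr14:101921889-101922188, minus strand: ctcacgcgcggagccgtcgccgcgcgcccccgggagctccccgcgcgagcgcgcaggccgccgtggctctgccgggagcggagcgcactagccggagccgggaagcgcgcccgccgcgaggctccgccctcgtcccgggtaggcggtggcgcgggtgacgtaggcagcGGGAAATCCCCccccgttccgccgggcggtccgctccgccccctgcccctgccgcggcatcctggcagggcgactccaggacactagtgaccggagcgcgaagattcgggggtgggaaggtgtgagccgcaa
Nfkb2, chr1:255108124-255108423, plus strand: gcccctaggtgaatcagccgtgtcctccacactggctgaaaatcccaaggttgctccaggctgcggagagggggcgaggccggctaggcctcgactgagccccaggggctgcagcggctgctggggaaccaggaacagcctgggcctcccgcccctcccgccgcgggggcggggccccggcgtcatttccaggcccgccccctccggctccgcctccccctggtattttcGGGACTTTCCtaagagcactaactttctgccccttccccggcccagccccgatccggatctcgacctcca
Counted from the annotated start, with the first transcribed base at 1, the match began at -31 in Nfkbia, at -164 in Nfkbie, at -38 in Bcl3 and at -20 in Nfkb2. Rel had 2 matches that overlap by all but 1 base, at -82 and -81. In the other windows Nfkb1 had 1 match at 4 (GGGAATTTCC), Nfkbiz 1 match of the same letters at -13 and Tnfaip3 3 matches, at -170, -67 and -55. Matches are descriptions of the letters in these windows and show no binding.

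No member passed the test between CKD and Sham at an adjusted p of 0.05. These are levels in bulk tissue, where fewer cells of a type and less RNA per cell cannot be told apart. The values did not lie on one side: 6 of the 10 members had a positive and 4 a negative fold change, with a median log2 fold change of 0.57 against -0.01 over all genes tested. Bcl3, Nfkbie, Nfkb2, Relb, Tnfaip3 and Nfkb1 averaged higher in CKD, whereas Rel and Nfkbia averaged lower and Rela and Nfkbiz lay near equality. The count was 0 of 10 by edgeR's quasi-likelihood test, where 3.82% of all genes tested passed (2.67% higher and 1.15% lower), with adjusted p from 0.0806 (Nfkbie) to 0.793 (Rela). At an unadjusted p under 0.05 it was 5 of 10, where 23.8% of all genes lay. limma-voom called 0, where it called 1.27% of all genes. DESeq2 called 4, namely Bcl3 and Nfkbie higher and Nfkbia and Rel lower, where it called 16.3% of all genes (8.99% higher and 7.28% lower). The 3 CKD libraries stood clear of the 3 Sham libraries in 3 of 10 members (Nfkb2 and Nfkbie higher, Nfkbia lower), close to the 31.2% of all genes tested (18.8% higher and 12.4% lower).

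**Figure D1:**
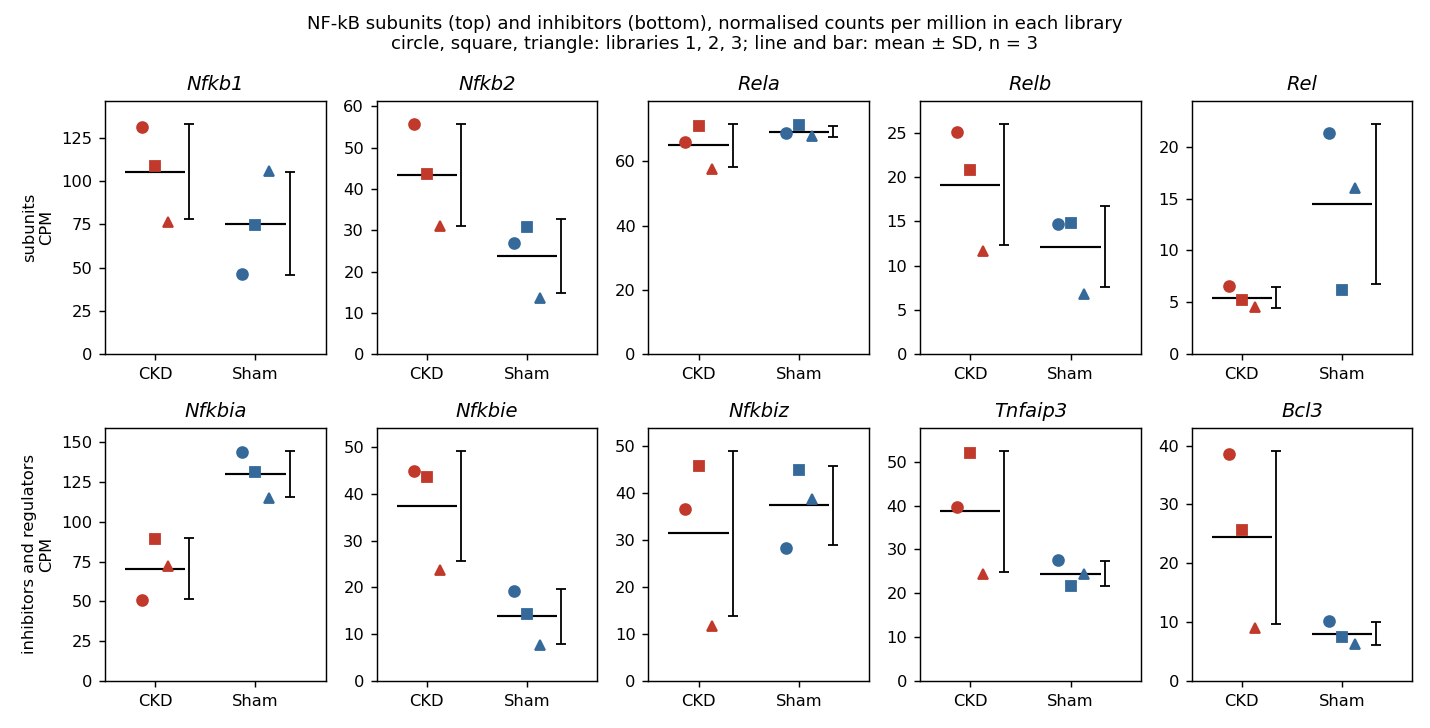
Normalised CPM of each member (vertical axes, from 0) in every CKD and Sham library, subunits above and inhibitors below, with the mean and SD of 3 libraries. The groups stand apart in Nfkb2, Nfkbia and Nfkbie, and in 9 of 10 panels CKD 3 is the lowest CKD library.

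Among the subunits, Rela encodes p65, the subunit that activates most canonical NF-kB targets. It had 65.9, 71.2 and 57.8 CPM in CKD 1, 2 and 3, against 68.8, 71.3 and 67.9 CPM in Sham 1, 2 and 3. These were the tightest values of any member, with the Sham libraries within a coefficient of variation of 2.54%, and the groups overlapped. Its log2 fold change was -0.09 ± 0.18 (SE; edgeR adjusted p = 0.793), and it was 0.33 when libraries were scaled by their totals alone, so no direction can be given.

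Nfkb1 encodes p105, the precursor of p50, the usual partner of p65. It had 131, 109 and 76.3 CPM in CKD, against 46.3, 74.5 and 106 CPM in Sham. CKD 3 lay below Sham 3, and the spread within Sham (2.28-fold from lowest to highest) was wider than the difference between the means of 105.4 ± 27.6 CPM in CKD and 75.4 ± 29.6 CPM in Sham (SD, n = 3 each). The log2 fold change was 0.48 ± 0.34 (edgeR adjusted p = 0.428) and became 0.18 without Sham 1.

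Nfkb2 encodes p100, which serves both as an IkB-like inhibitor and as the precursor of p52 in the slower branch. It had 55.7, 43.7 and 30.99 CPM in CKD, against 26.8, 30.7 and 13.7 CPM in Sham. Every CKD library lay above every Sham library, although CKD 3 exceeded Sham 2 by under 1 CPM. Means were 43.5 ± 12.3 CPM in CKD and 23.7 ± 8.95 CPM in Sham (SD, n = 3 each), a log2 fold change of 0.87 ± 0.35 that did not pass (edgeR adjusted p = 0.188) and was 0.52 without Sham 3.

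Relb encodes the partner of p52. It had 25.1, 20.8 and 11.6 CPM in CKD, against 14.7, 14.8 and 6.83 CPM in Sham. CKD 3 lay below Sham 1 and Sham 2, and Sham 3 was the lowest of all 6. The log2 fold change was 0.66 ± 0.40 (edgeR adjusted p = 0.357), or 0.30 without Sham 3.

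Rel encodes c-Rel, a subunit best known from lymphocytes and other leukocytes. It had 6.56, 5.22 and 4.56 CPM in CKD, against 21.3, 6.15 and 16.0 CPM in Sham. The CKD libraries were close together, while Sham 2 lay among them and Sham 1 and Sham 3 lay well above. The log2 fold change was -1.41 ± 0.46 (edgeR adjusted p = 0.117; 0.0224 in DESeq2), and it was -1.82 without Sham 2 (edgeR adjusted p = 0.0552).

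Among the inhibitors and regulators, Nfkbia encodes IkBa, the main cytoplasmic inhibitor of p65 dimers and one of the first genes that NF-kB itself induces. It had 50.8, 89.1 and 72.1 CPM in CKD, against 144, 132 and 115 CPM in Sham. All CKD libraries lay below all Sham libraries, with CKD 1 lowest. Means were 70.7 ± 19.2 CPM in CKD and 130.2 ± 14.7 CPM in Sham (SD, n = 3 each), a log2 fold change of -0.88 ± 0.25. It did not pass in edgeR (adjusted p = 0.0871) and passed in DESeq2 (adjusted p = 0.0144). Scaled by library totals alone the log2 fold change was -0.46 (edgeR adjusted p = 0.225). In the deposited table, whose coordinate build is uncertain and is not that of the promoter windows, Nfkbia lies on the minus strand of chromosome 6 from 72858712 to 72861941.

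Nfkbie encodes IkBe, another IkB protein of the cytoplasm, which acts later than IkBa. It had 44.96, 43.5 and 23.8 CPM in CKD, against 19.3, 14.3 and 7.74 CPM in Sham. The groups did not overlap, and the third library was the lowest in each. Means were 37.4 ± 11.8 CPM in CKD and 13.8 ± 5.81 CPM in Sham, a log2 fold change of 1.44 ± 0.39 with the smallest adjusted p of the 10 members in edgeR (0.0806; 0.0156 in DESeq2). It passed in edgeR without Sham 1 (adjusted p = 0.0458), where 10.8% of all genes passed, and with library totals alone (adjusted p = 0.0255). The counts of Nfkbie are uncertain, because its annotated span on chromosome 9 from 15436941 to 15450437 overlaps Hsp90ab1 on the other strand and Aars2 and Slc35b2 on the same strand. Hsp90ab1, a far more abundant chaperone gene, had a log2 fold change of 0.06 ± 0.34 and Aars2 one of 0.33 ± 0.23 (edgeR adjusted p = 0.932 and 0.412). The CKD libraries of Aars2 (19.26 to 20.41 CPM) lay above its Sham libraries (12.95 to 18.72 CPM). Slc35b2 had 7 counts over all libraries, against 2876 for Nfkbie. The part of these genes in the counts of Nfkbie was not tested.

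Bcl3 encodes an atypical IkB of the nucleus that works with p50 and p52 dimers. It had 38.5, 25.6 and 9.07 CPM in CKD, against 10.3, 7.55 and 6.34 CPM in Sham. CKD 1 and CKD 2 lay above all Sham libraries, but CKD 3 lay below Sham 1, and the CKD libraries differed 4.25-fold among themselves, more than for any other member in CKD. The log2 fold change of 1.60 ± 0.50 was the largest in size of the 10 and did not pass in edgeR (adjusted p = 0.1096; 0.0281 in DESeq2). Without CKD 3 it was 1.998 (edgeR adjusted p = 0.0393), where 2.61% of all genes passed, and without CKD 1 it was 1.11 (edgeR adjusted p = 0.362).

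Tnfaip3 encodes A20, a ubiquitin-editing enzyme that shuts off signalling above IKK. It had 39.7, 52.0 and 24.4 CPM in CKD, against 27.5, 21.7 and 24.3 CPM in Sham. CKD 3 was level with the Sham libraries and the other CKD libraries lay above them. The log2 fold change was 0.66 ± 0.30 (edgeR adjusted p = 0.225), or 0.39 without CKD 2.

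Nfkbiz encodes IkBz, a nuclear IkB that is induced quickly and is needed for a subset of late NF-kB targets. It had 36.7, 45.8 and 11.7 CPM in CKD, against 28.3, 44.99 and 38.9 CPM in Sham. CKD 1 and CKD 2 lay within the Sham range or just above it and CKD 3 lay far below. The log2 fold change of -0.25 ± 0.46 (edgeR adjusted p = 0.786) turned to 0.15 without CKD 3 and to 0.18 with library totals alone, so no direction can be given.

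**Figure D2:**
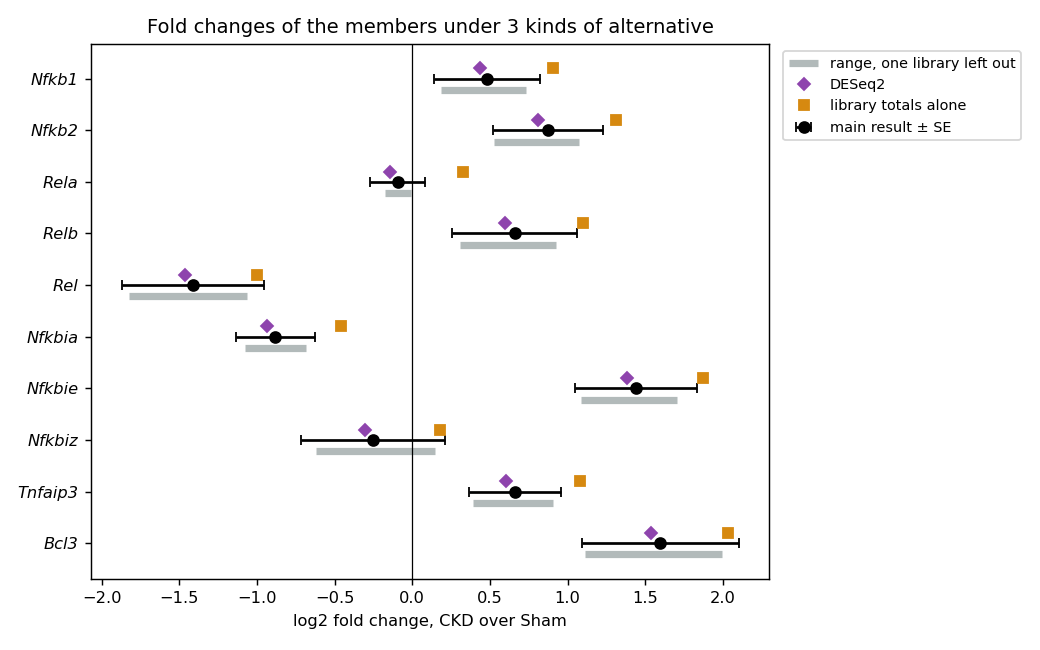
Log2 fold change of each member, CKD over Sham (horizontal axis), with the main value and its SE in black, DESeq2 and scaling by library totals as further marks and the range over single libraries left out as a grey bar. Rel and Nfkbia lie left of 0 and Nfkb1, Nfkb2, Relb, Nfkbie, Tnfaip3 and Bcl3 right of 0 in every setting drawn, while Rela and Nfkbiz cross it.

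Scaling by library totals alone raised the median log2 fold change of all genes by 0.42 and made 2047 genes higher and 181 lower, against 411 higher and 176 lower with TMM. With it edgeR called 3 members, Nfkb2, Nfkbie and Bcl3, all higher, where 14.5% of all genes were called (13.3% higher). At an adjusted p of 0.1 in place of 0.05 edgeR called Nfkbie higher and Nfkbia lower, where 11.7% of all genes were called (7.56% higher and 4.11% lower).

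Within the CKD group the third library often lay lowest. CKD 3 was the lowest CKD library in 9 of the 10 members, Nfkbia being the exception, and in 40.1% of all genes tested. Sham 3 was the lowest Sham library in 6 members, against 26.2% of all genes. These values describe the libraries and carry no test.

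Levels were compared between genes as CPM per kilobase of annotated gene length. In CKD Nfkbia was highest at 34.9 ± 9.47 CPM per kilobase, followed by Nfkb1 (22.8 ± 5.97) and Rela (21.5 ± 2.23), and these neighbours overlapped over the 3 libraries. Nfkb2 (14.4 ± 4.08), Bcl3 (13.6 ± 8.25), Relb (8.40 ± 3.01), Nfkbiz (7.70 ± 4.32), Nfkbie (5.17 ± 1.64) and Tnfaip3 (5.12 ± 1.83) came next in CKD, Nfkb2 clear of Rela and each later gene overlapping the one before. Rel was lowest in CKD at 1.61 ± 0.30 CPM per kilobase, clear of Tnfaip3 just above it. In Sham Nfkbia at 64.2 ± 7.24 CPM per kilobase stood clear of Rela (22.9 ± 0.58), which overlapped Nfkb1 (16.3 ± 6.40). Nfkbiz (9.16 ± 2.06), Nfkb2 (7.84 ± 2.96), Relb (5.32 ± 2.01), Bcl3 (4.50 ± 1.13), Rel (4.29 ± 2.28) and Tnfaip3 (3.24 ± 0.38) followed in Sham, each overlapping the one before. Nfkbie was lowest in Sham at 1.91 ± 0.80 CPM per kilobase, clear of Tnfaip3. That place rests on its deposited length of 7232 bases, within an annotated span that overlaps other genes. By CPM without length, Nfkbie averaged 13.8 in Sham, above Relb (12.1) and Bcl3 (8.05).

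Nfkbia took a smaller share of the inhibitor set in every CKD library than in any Sham library, a description with no test. It made up 37.4%, 53.4% and 71.1% of the summed CPM per kilobase of the 5 inhibitors in CKD 1, 2 and 3, against 78.9%, 76.4% and 76.6% in Sham 1, 2 and 3. Bcl3 made up 32.1%, 17.4% and 10.1% in CKD, against 6.38%, 4.96% and 4.79% in Sham. Among the 5 subunits Rela made up 26.7% to 36.5% in CKD and 39.0% to 41.8% in Sham. Rel made up 2.14% to 2.58% of the subunits in CKD and 3.13% to 11.6% in Sham. The 5 inhibitors over the 5 subunits gave a ratio of 0.823, 1.14 and 0.957 in CKD, against 1.66, 1.46 and 1.29 in Sham, with no overlap. Nfkbia was the largest part of the inhibitor sum in every library. The inhibitor sums alone overlapped: CKD 2 (82.44 CPM per kilobase) lay above Sham 3 (74.01), while CKD 1 and CKD 3 lay below every Sham library. The subunit sums of CKD 1 and CKD 2 (81.49 and 72.1 CPM per kilobase) lay above those of all Sham libraries (54.37 to 58.11). The subunit sum of CKD 3 (52.27) lay below them. The parts of Nfkbia and of the subunits in the ratio were not tested. The ratio does not describe Bcl3, Nfkbie and Tnfaip3, which averaged higher in CKD per kilobase, while Nfkbiz averaged lower.

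Ratios of 2 genes within a library do not depend on the scaling between libraries, and 3 of them were tested by an exact two-sided permutation test, which with 3 against 3 libraries cannot go below p = 0.1. Nfkbia over Rela, per kilobase, stood at 1.151, 1.87 and 1.86 in CKD and at 3.13, 2.76 and 2.53 in Sham. The groups did not overlap, and the difference in mean log2 ratio was -0.81, at the smallest p the design allows (exact permutation p = 0.1; 0.3 adjusted over 3 ratios). Relb over Rela stood at 0.505, 0.387 and 0.267 in CKD and at 0.284, 0.276 and 0.134 in Sham, a log2 difference of 0.77 with overlapping groups (exact permutation p = 0.3, adjusted 0.45). Nfkb2 over Nfkb1 was 0.648, 0.615 and 0.621 in CKD and 0.885, 0.631 and 0.198 in Sham (exact permutation p = 0.9). This last ratio had a SD of 0.0179 in CKD and 0.348 in Sham, and its log2 difference of 0.39 was -0.25 without Sham 3.

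**Figure D3:**
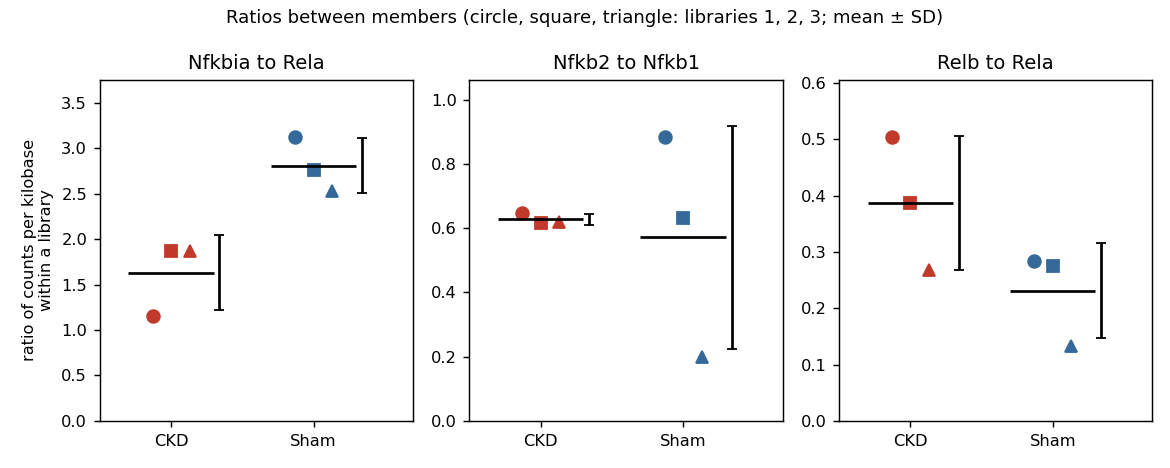
Ratios of counts per kilobase within each library (vertical axes, from 0) for Nfkbia over Rela, Nfkb2 over Nfkb1 and Relb over Rela, with mean and SD of 3 libraries. The CKD values of Nfkbia over Rela lie between 1.151 and 1.87, below the Sham values of 2.53 to 3.13, and the other ratios overlap.

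Markers of leukocytes stood higher in CKD. The 33 leukocyte markers on the fixed lists summed to 1722, 1913 and 844 CPM in CKD 1, 2 and 3, against 532, 263 and 399 CPM in Sham 1, 2 and 3. The macrophage gene Lyz2 alone gave 783.8, 1138 and 399.5 CPM of these sums in CKD, and 265.5, 102.8 and 196.4 CPM in Sham. CKD 3 was the lowest CKD library for the sum of the 33 markers, as it was for 9 of the members. By list, the 4 pan-leukocyte genes summed to 125 to 282 CPM in CKD and 55.5 to 76.9 CPM in Sham, and their first members Ptprc and Coro1a rose by log2 fold changes of 1.79 ± 0.34 and 2.57 ± 0.41 (edgeR adjusted p = 0.0405 and 0.0335). The 7 macrophage genes, among them Csf1r and Cd68, summed to 612 to 1506 CPM in CKD and 152 to 398 CPM in Sham, and the 6 T cell genes, among them Cd3e and Cd3d, to 21.97 to 45.7 CPM in CKD and 7.55 to 9.002 CPM in Sham. The 5 dendritic cell genes, Itgax and Flt3 first, overlapped (19.2 to 57.1 CPM in CKD, 14.3 to 21.6 CPM in Sham). The 6 B and plasma cell genes summed to 64.3 to 102 CPM in CKD and 8.31 to 31.9 CPM in Sham, although Ms4a1 had at most 20 counts in any library. The 5 neutrophil genes overlapped, at 1.54 to 3.67 CPM in CKD and 2.13 to 17.96 CPM in Sham, with Mpo and Elane at 0 in all Sham libraries and S100a8 and S100a9 highest in Sham 2. The part of leukocyte content in the members' values was not tested.

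Rapid-response genes, which cells switch on within minutes of a stimulus, summed lower in CKD. The 10 such genes in the table summed to 483, 967 and 386 CPM in CKD and to 1428, 1082 and 1722 CPM in Sham, with no overlap. The row used for Junb is annotated as a pseudogene and had 0 counts in every library, so Junb expression cannot be read from it. Of the 9 genes tested, 0 passed higher and 2 lower in edgeR, where 2.67% and 1.15% of all genes tested passed. These were Zfp36, which destabilises cytokine mRNAs (-1.52 ± 0.30; edgeR adjusted p = 0.0434), and Btg2, an antiproliferative gene (-2.06 ± 0.44; edgeR adjusted p = 0.0484). The median log2 fold change of the 9 was -0.99, with 7 negative and 2 positive. The positive ones, named after their values were seen, were Fos (1.19 ± 0.92) and Fosb (0.16 ± 0.50). Nfkbia, also rapidly induced, stood lower in the same libraries, and the part of the rapid response in its values was not tested.

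**Figure D4:**
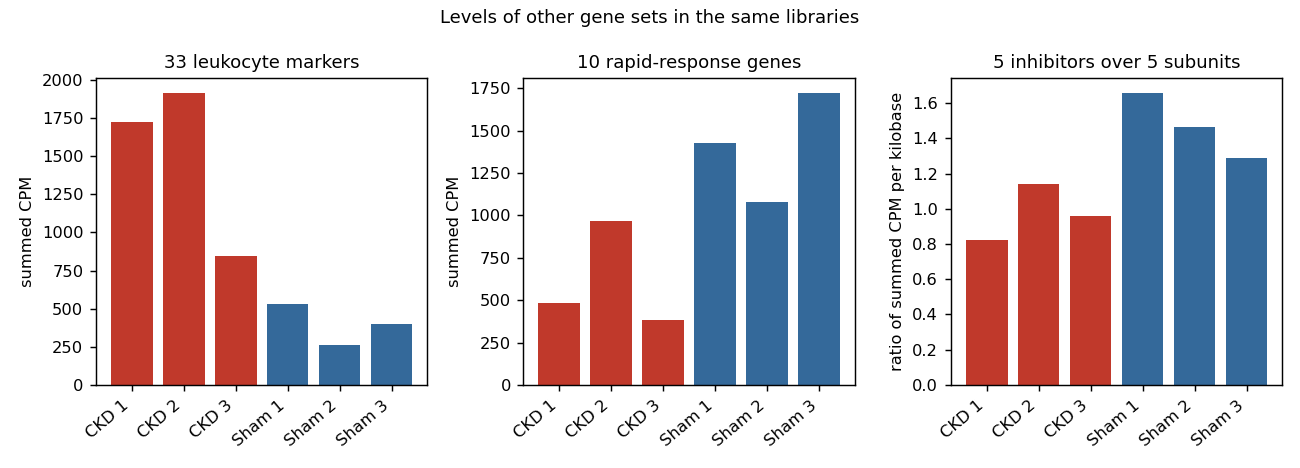
Summed CPM of 33 leukocyte markers (left) and of 10 rapid-response genes (middle), and the ratio of summed CPM per kilobase of 5 inhibitors over 5 subunits (right), in each library. The summed leukocyte markers are higher and the other measures lower in every CKD library than in every Sham library. Lyz2 is the largest part of the leukocyte sum, and Nfkbia of the inhibitor sum, in each library.

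The rest of the pathway was read from 6 lists of 102 genes, of which 89 were tested. By edgeR 6 passed higher and 1 lower, 7 of 89 where 3.82% of all genes tested passed. The median log2 fold change of these genes was 0.33, against -0.01 over all genes tested. Of the 7 calls 0 were left without CKD 1, CKD 2, Sham 2 or Sham 3, while there were 9 calls without CKD 3 and 20 without Sham 1, where 10.8% of all genes tested passed. The share of all genes that passed was 0.0% without CKD 1 and without CKD 2, 0.0127% without Sham 2 and 0.0442% without Sham 3. DESeq2 called 22 of the 89 higher and 8 lower, where it called 8.99% and 7.28% of all genes. limma-voom called 0, where it called 1.27% of all genes. The DESeq2 and limma-voom counts by list below are to be read against these shares.

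Of 12 ligands 6 were tested and 0 passed in edgeR (2 at an unadjusted p under 0.05, median log2 fold change 0.60). DESeq2 called 2 (Ltb and Tnfsf13b) and limma-voom 0. Ltb, which encodes lymphotoxin beta, a ligand of the slower branch, had 8.10, 5.81 and 2.41 CPM in CKD, against 1.33, 0.769 and 0.634 CPM in Sham (log2 fold change 2.57 ± 0.58, edgeR adjusted p = 0.0547). Tnfsf13b, which encodes the B cell factor BAFF, had 9.12, 7.45 and 4.25 CPM in CKD, against 3.27, 2.24 and 1.97 CPM in Sham (1.47 ± 0.42 on the log2 scale, edgeR adjusted p = 0.0866). In both every CKD library exceeded every Sham library. Tnf itself, named after its values were seen, did not pass the filter, with 24, 15 and 4 counts in CKD and 2, 4 and 0 counts in Sham, and Il1a had 0 counts in every library.

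Of 14 receptors tested 2 passed higher and 0 lower in edgeR (median log2 fold change 1.002). DESeq2 called 6 higher and 1 lower (Tnfrsf12a, named after its values were seen) and limma-voom 0. Tlr2, a receptor for bacterial lipoproteins, had 13.7, 9.84 and 4.61 CPM in CKD, against 1.27, 0.978 and 2.04 CPM in Sham, that is 2.71 ± 0.52 on the log2 scale (edgeR adjusted p = 0.0415). Tlr7, an endosomal receptor for single-stranded RNA, had 16.9, 9.29 and 6.30 CPM in CKD, against 2.0, 1.26 and 2.53 CPM in Sham, that is 2.49 ± 0.48 on the log2 scale (edgeR adjusted p = 0.0417). Neither gene overlapped between groups, and in both CKD 3 was the lowest CKD library.

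Of 20 adaptors and ubiquitin ligases tested 2 passed higher and 0 lower in edgeR (median log2 fold change 0.33). DESeq2 called 4 higher and 1 lower (Irak2, named after its values were seen) and limma-voom 0. Traf1, a TNF receptor adaptor that is itself an NF-kB target, had 4.92, 5.66 and 2.82 CPM in CKD, against 1.0, 0.769 and 0.422 CPM in Sham, that is 2.60 ± 0.51 on the log2 scale (edgeR adjusted p = 0.0426). All CKD libraries of Traf1 exceeded all Sham libraries.

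By median the kinases stood nearest to equality of the 6 lists. Of 9 tested 0 passed in edgeR, 1 had an unadjusted p under 0.05 and the median log2 fold change was 0.06. DESeq2 called 1 (Chuk) and limma-voom 0. Chuk, which encodes IKKa, had 63.2, 66.2 and 70.4 CPM in CKD, against 99.8, 81.3 and 137 CPM in Sham (-0.67 ± 0.24, edgeR adjusted p = 0.140), with no overlap. Ikbkg, which encodes the regulatory subunit NEMO, averaged 17.0 ± 1.87 CPM in CKD and 14.7 ± 1.09 CPM in Sham (SD, n = 3 each; edgeR adjusted p = 0.596).

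Of 15 other inhibitors tested 0 passed in edgeR, with 3 at an unadjusted p under 0.05 and a median log2 fold change of -0.22. DESeq2 called 2 (Tnip3 and Zc3h12a) and limma-voom 0. Tnip3, an A20-binding protein, averaged 4.81 ± 2.60 CPM in CKD and 1.003 ± 0.649 CPM in Sham (log2 fold change 2.25 ± 0.68, edgeR adjusted p = 0.0982). Zc3h12a, the endonuclease Regnase-1 that degrades inflammatory mRNAs, had 16.5, 22.1 and 10.1 CPM in CKD, against 28.1, 40.2 and 29.1 CPM in Sham (-0.9988 ± 0.32, edgeR adjusted p = 0.116). Its CKD libraries all lay below the Sham libraries, as those of Nfkbia did.

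Of 25 tested target genes 2 passed higher and 1 lower in edgeR (median log2 fold change 0.66). DESeq2 called 9 higher and 4 lower and limma-voom 0. Irf1, an interferon-pathway transcription factor, had 60.9, 175 and 22.1 CPM in CKD, against 9.87, 8.59 and 8.87 CPM in Sham, that is 3.24 ± 0.69 on the log2 scale (edgeR adjusted p = 0.049). Ccl19, a chemokine of lymphoid tissue and a target of the slower branch, had 11.7, 15.3 and 5.69 CPM in CKD, against 2.40, 0.489 and 1.41 CPM in Sham (2.92 ± 0.63, edgeR adjusted p = 0.0494). Gadd45b, a stress gene that limits JNK signalling, fell to 9.46, 20.6 and 15.0 CPM in CKD, against 63.5, 58.6 and 36.0 CPM in Sham (-1.81 ± 0.35, edgeR adjusted p = 0.0415). The targets that passed thus lay on both sides.

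**Figure D5:**
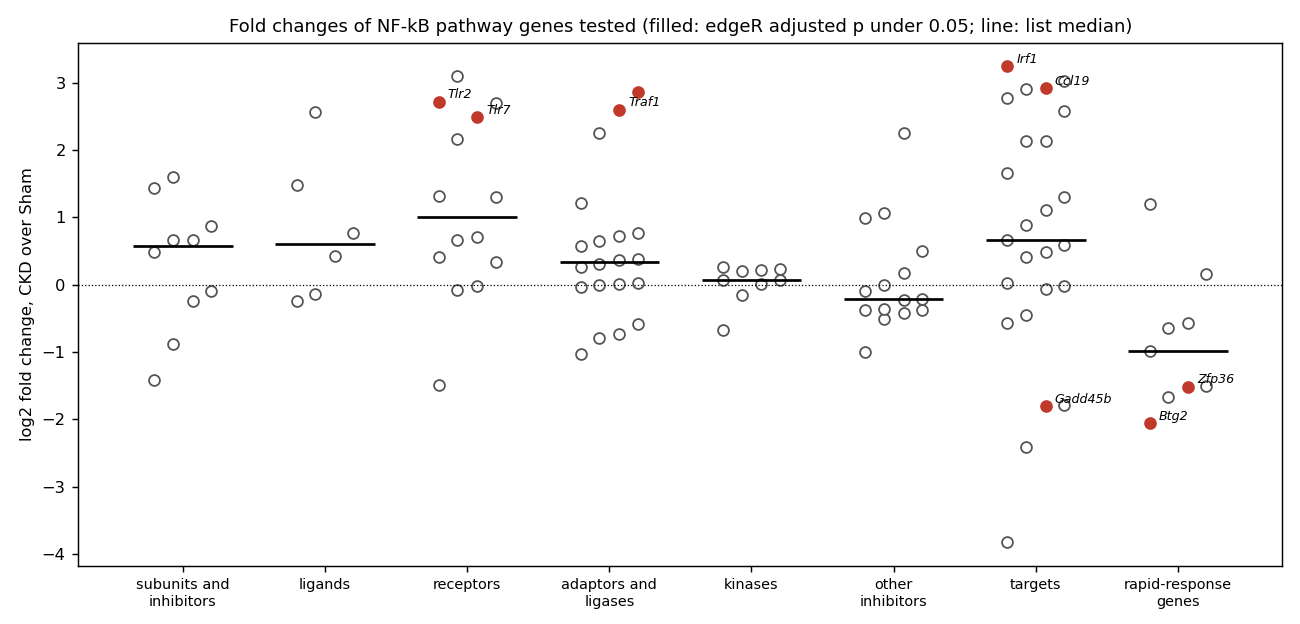
Log2 fold change, CKD over Sham (vertical axis), of every tested gene of the members, of 6 pathway lists and of the rapid-response list, with filled points for genes past an edgeR adjusted p of 0.05 and a line at each list's median. The filled points include Tlr2, Tlr7, Traf1, Irf1 and Ccl19 above 0 and Gadd45b, Zfp36 and Btg2 below it, and no member is filled.

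Likeness in pattern was ranked among tested genes with a symbol, leaving out placeholder names such as those that begin with LOC or RGD. The genes whose log2 CPM over the 6 libraries lay closest in pattern to Nfkbia were Cfap36, Gadd45b and Atf1, with a Pearson r of 0.989, 0.987 and 0.986. For Nfkbie they were Rac2, a GTPase of blood cells, Tmed3 and Batf3, a transcription factor of dendritic cells, with an r of 0.997, 0.997 and 0.996. Over all genes tested, with or without such a name, an r of at least 0.95 was met by 39 for Nfkbia and 241 for Nfkbie. These values describe likeness over 6 libraries that share the split into CKD and Sham.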

How the data were processed

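Per the labels' protocols, TRIzol served to extract kidney RNA and a VAHTS Universal V5 kit to build the libraries. The authors deposited raw counts per gene, 1 column per library, with no normalization. HTSeq 0.11.2, HISAT2 2.1.0, fastp 0.20.1 and the build Rnor_6.0 are named, without roles, per the submitters' processing notes. The build of the table's own coordinates is uncertain, and the sources used here give no strand setting for counting. Gene lengths, in bases, come from the deposited table.

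Genes were filtered by filterByExpr (minimum count 10, minimum total 15), scaled by TMM and fitted with the group as only term (edgeR 4.0.16, robust quasi-likelihood, R 4.3.3), with Benjamini-Hochberg adjustment over 15371 genes. Fold changes are CKD over Sham. limma 3.58.1 and DESeq2 1.42.0 served as alternatives. No library was a copy of another: within groups, chi-square divided by its degrees of freedom was 30.9 to 330. The model was tested on simulated data. The members and lists were chosen with earlier results of these data known. All members were named. Each list's called genes were named, or the 2 with the smallest p where none or 1 was called, with the first 2 genes of each marker list and the 3 genes of highest Pearson r with Nfkbia and with the member of smallest p. Some genes that this rule names are not reported here.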

Additional observations from a re-analysis of the deposited data

How the results depend on the processing

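The count of members called, 0 in edgeR (5 at an unadjusted p under 0.05), was 0 in limma-voom, 4 in DESeq2, 3 with library totals alone and 2 at an adjusted p of 0.1. With single libraries left out it ran from 0 to 1. Bcl3 passed without CKD 3, where 2.61% of all genes passed, and Nfkbie without Sham 1, where 10.8% passed. The share of all genes was 0.0% without CKD 1 and without CKD 2, 0.0127% without Sham 2 and 0.0442% without Sham 3. The count of other pathway genes called, 7, was 13 with upper-quartile factors (4.66% of all genes called), 13 with no filter on low counts (3.3%), 28 with library totals alone (14.5%), 30 in DESeq2 (16.3%), 22 at an adjusted p of 0.1 (11.7%), 0 in limma-voom (1.27%) and 0 with the replicate block (0.0651%), and ran from 0 to 20 with single libraries left out. In limma-voom and with the block 37 and 34 of these genes had an unadjusted p under 0.05, against 37 in the main edgeR fit, where 23.8% of all genes lay. The shares of all genes at that p in limma-voom and with the block are not given here. Of 160 values of members under alternatives 148 kept their sign and side of the threshold, 9 passed it and 3 reversed. Keeping the side of the threshold shows little where almost no gene of the whole table passed. That was so without CKD 1, CKD 2, Sham 2 or Sham 3 and with the block. The reversals were Rela at 0.33 and Nfkbiz at 0.18 with library totals alone, and Nfkbiz without CKD 3, whose values with single libraries left out ran from -0.62 to 0.15. The log2 difference of Nfkb2 over Nfkb1 was -0.0237 from group medians and ran from -0.25 to 0.83 with single libraries left out. The cause of these differences was not tested.

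Replicate numbers were not used as pairs, since deviations of equally numbered libraries correlated at -0.21, 0.0045 and -0.16. With the replicate block 0 members and 10 of all genes passed in edgeR. At an unadjusted p under 0.05 the block gave 6 members, against 5 without it, where 23.8% of all genes lay. The share of all genes at that p with the block is not given here, so the 6 has no background to be read against. With 3 libraries a group the spread between libraries limits these values, and the members drew 88 counts or more in every library.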

Other observations

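Some targets on the fixed list stood lower in CKD without passing in edgeR (DESeq2 called Mmp9 and Ptgs2), and they were named after their values were seen. Mmp9, a matrix protease that neutrophils store, had 1.93, 0.894 and 4.05 CPM in CKD, against 3.27, 56.9 and 37.2 CPM in Sham (log2 fold change -3.82 ± 1.001, edgeR adjusted p = 0.074). Ptgs2, the inducible cyclooxygenase, had 3.18, 2.19 and 1.43 CPM in CKD, against 3.07, 24.5 and 8.87 CPM in Sham (-2.41 ± 0.73, edgeR adjusted p = 0.101). In both genes Sham 2 was the highest library and Sham 1 lay among the CKD libraries. S100a9, a neutrophil marker, had the same order in Sham, at 1.13, 11.4 and 4.93 CPM, with 0.482, 0.398 and 0.154 CPM in CKD.

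The adhesion molecules Icam1 and Vcam1, classic endothelial and tubular targets, had log2 fold changes of 1.31 ± 0.43 and 1.11 ± 0.59 (edgeR adjusted p = 0.121 and 0.298). DESeq2 called Icam1 and not Vcam1. Icam1 had 85.8, 97.6 and 40.3 CPM in CKD, against 46.5, 20.3 and 23.7 CPM in Sham, so that CKD 3 again lay lowest and overlapped Sham.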
